A study of Mus musculus with 5 samples.

Results

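The Klf, Sp and Egr genes and Wt1 encode transcription factors that bind GC-rich DNA through a run of zinc fingers near the end of the protein. A fixed list of 30 of them was examined (16 Klf, 9 Sp and 4 Egr genes and Wt1), among 21631 protein-coding genes on 19 autosomes and X. Each symbol matched 1 gene of the RefSeq table, and membership follows family names and not measured values, although the list was drawn up with earlier results of these data known. The chromatin came from basal epidermal progenitors of adult back skin from control mice at postnatal day 71. The mice carried the K14-RFP and K10-H2B-GFP reporters, in which keratin promoters mark basal and suprabasal keratinocytes, and cells that were Sca1(+), RFP(high) and GFP(-) were sorted. Chromatin immunoprecipitation and sequencing gave 2 libraries with an H2AK119ub antibody, 2 with an H3K27me3 antibody and 1 input library without antibody, all of the same genotype and age. What was deposited is a list of called regions for each antibody, 33155 for H2AK119ub and 15102 for H3K27me3, and a region is given by its chromosome, start and end. The lists hold no height, score or replicate, so read depth and the spread between libraries are unknown and the values below are descriptions without a test.

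H2AK119ub, the ubiquitin mark placed on histone H2A by Polycomb repressive complex 1 (PRC1), and H3K27me3, the methyl mark placed on histone H3 by Polycomb repressive complex 2 (PRC2), are found together at silent developmental genes in many tissues. H2AK119ub also occurs without H3K27me3, including at genes that are transcribed. In the epidermis Klf4 is required for the skin barrier and Klf5 acts in basal keratinocytes, whereas other relatives direct red blood cells, bone, limb buds, brain or kidney. Sp1 and Sp3 are present in most cell types, and the Egr genes are induced within minutes by growth factors in many cell types. The 30 genes were sorted by such known roles into 4 epidermal, 10 other-lineage, 4 Egr and 12 broadly expressed genes.

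The sequences around 6 transcript starts show the range of promoters that the called regions did or did not cover. They are RefSeq sequences of GRCm38.p6, the build also called mm10, of 300 bases each from 250 before to 50 after the start, written 5′ to 3′ on the strand of the gene with every CpG dinucleotide in capitals. Klf4 and Klf2 had H2AK119ub next to the start but not over it, Sp9 and Sp8 had both marks over it, and Sp3 and Klf17 had neither mark in the gene. The Klf4 window is chr4:55532426-55532725 on the minus strand, that of Klf2 is chr8:72318812-72319111 on the plus strand and that of Sp9 is chr2:73271676-73271975 on the plus strand. The Sp8 window is chr12:118846079-118846378 on the plus strand, that of Sp3 is chr2:72980397-72980696 on the minus strand and that of Klf17 is chr4:117765617-117765916 on the minus strand.
Klf4: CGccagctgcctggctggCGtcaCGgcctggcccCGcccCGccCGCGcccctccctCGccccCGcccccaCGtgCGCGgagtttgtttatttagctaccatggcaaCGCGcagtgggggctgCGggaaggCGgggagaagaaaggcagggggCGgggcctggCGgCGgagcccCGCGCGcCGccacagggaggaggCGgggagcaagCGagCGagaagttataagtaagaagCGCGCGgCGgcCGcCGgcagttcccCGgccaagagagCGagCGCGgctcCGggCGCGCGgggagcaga
Klf2: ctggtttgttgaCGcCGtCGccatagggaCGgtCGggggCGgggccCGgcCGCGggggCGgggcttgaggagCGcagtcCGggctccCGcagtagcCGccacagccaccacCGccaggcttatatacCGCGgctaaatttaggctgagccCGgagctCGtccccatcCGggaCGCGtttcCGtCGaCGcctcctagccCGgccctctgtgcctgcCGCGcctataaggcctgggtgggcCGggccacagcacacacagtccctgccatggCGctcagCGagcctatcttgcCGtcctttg
Sp9: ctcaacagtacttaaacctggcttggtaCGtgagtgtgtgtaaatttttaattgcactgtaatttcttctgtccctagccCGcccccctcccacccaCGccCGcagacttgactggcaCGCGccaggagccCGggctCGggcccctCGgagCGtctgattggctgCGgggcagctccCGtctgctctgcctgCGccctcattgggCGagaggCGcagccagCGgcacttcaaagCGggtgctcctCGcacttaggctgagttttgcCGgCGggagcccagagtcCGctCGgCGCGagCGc
Sp8: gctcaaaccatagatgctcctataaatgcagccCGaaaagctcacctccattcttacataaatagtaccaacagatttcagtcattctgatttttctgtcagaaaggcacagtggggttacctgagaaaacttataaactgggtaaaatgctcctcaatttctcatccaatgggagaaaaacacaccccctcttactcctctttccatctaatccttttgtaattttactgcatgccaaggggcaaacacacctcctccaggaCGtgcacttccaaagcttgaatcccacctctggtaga
Sp3: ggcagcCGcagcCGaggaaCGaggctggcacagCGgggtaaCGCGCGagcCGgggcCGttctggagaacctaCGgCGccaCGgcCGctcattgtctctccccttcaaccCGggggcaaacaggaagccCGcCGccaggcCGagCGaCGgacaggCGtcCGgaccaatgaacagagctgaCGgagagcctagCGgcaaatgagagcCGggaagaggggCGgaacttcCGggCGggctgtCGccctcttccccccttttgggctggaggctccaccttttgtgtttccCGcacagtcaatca
Klf17: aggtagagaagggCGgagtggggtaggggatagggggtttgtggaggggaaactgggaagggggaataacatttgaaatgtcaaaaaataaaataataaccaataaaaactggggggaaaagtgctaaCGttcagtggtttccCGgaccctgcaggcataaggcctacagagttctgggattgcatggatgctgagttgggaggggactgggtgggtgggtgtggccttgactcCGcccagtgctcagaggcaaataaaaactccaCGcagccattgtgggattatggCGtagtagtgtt

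H2AK119ub was found at more of these genes than at protein-coding genes as a whole, and so was H3K27me3, which was present at 6 Sp, 3 Egr and 2 Klf genes and at Wt1. A gene was counted as marked when a region shared at least 1 bp with its annotated body or the 1 kb on either side. H2AK119ub was present at 24 of the 30 genes (80.0%), against 60.6% of all protein-coding genes. H3K27me3 was present at 12 of the 30 (40.0%), against 27.3% of all protein-coding genes. All 30 lie on autosomes, where the shares over all genes were 60.0% and 24.9%. Each of the 12 genes with H3K27me3 also had H2AK119ub, as did 87.4% of all genes with H3K27me3. In turn 12 of the 24 genes with H2AK119ub had H3K27me3, against 39.4% of all genes with H2AK119ub. A further 12 genes had H2AK119ub alone and 6 had neither mark, against 36.7% and 36.0% of all protein-coding genes. None had H3K27me3 alone, a class that held 3.44% of all protein-coding genes. The 30 gene bodies were shorter than average, with a median length of 10.3 kb against 17.3 kb for all protein-coding genes.

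**Figure D1:**
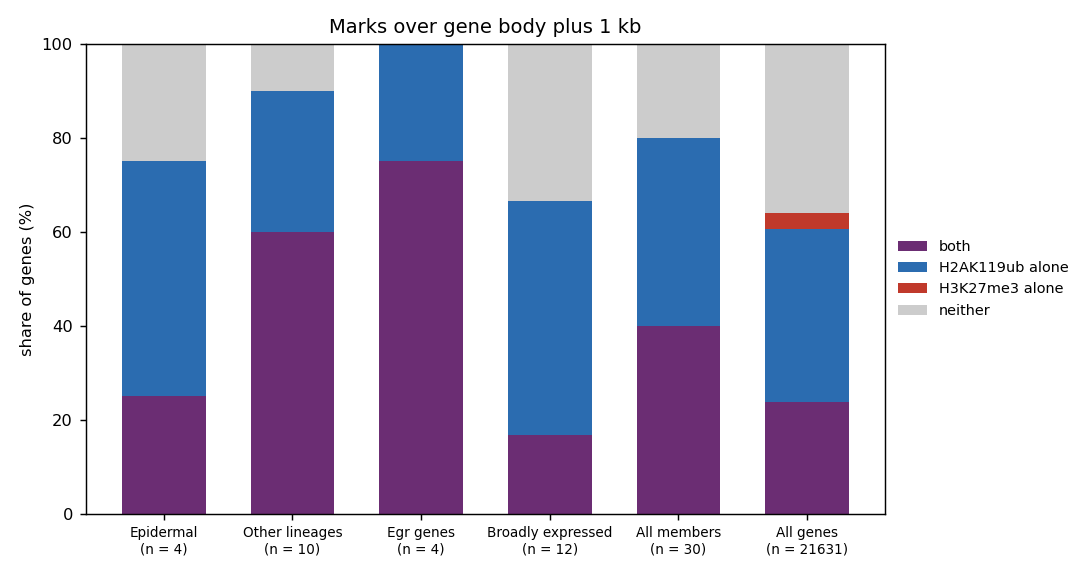
Share of genes (%, vertical axis) in each of 4 classes of marking over the gene body plus 1 kb, for the 4 groups, the 30 genes together and all protein-coding genes. Both marks were found at 1 of 4 epidermal, 6 of 10 other-lineage, 3 of 4 Egr and 2 of 12 broadly expressed genes, and at 23.9% of all genes.

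The families differed in which marks they carried. Of the 16 Klf genes, 11 had H2AK119ub alone, 2 had both marks (Klf12 and Klf14) and 3 had neither (Klf5, Klf6 and Klf17). Over all protein-coding genes these 3 classes held 36.7%, 23.9% and 36.0%. H3K27me3 was thus at a smaller share of the Klf genes than the 27.3% of all protein-coding genes. None of the 9 Sp genes had H2AK119ub alone, since 6 had both marks and 3 (Sp1, Sp3 and Sp4) had neither. Among the 6, Sp2 had H3K27me3 only through the region over Sp6, which covered 4.88% of the Sp2 body. Of the 4 Egr genes, 3 had both marks and Egr1 had H2AK119ub alone, and Wt1 had both. At least 50% of the gene body lay under H2AK119ub at 18 of the 30 genes, against 34.6% of all protein-coding genes, and under H3K27me3 at 10, against 11.7%. These comparisons were not matched for gene length, and the 30 genes have the shorter median length.

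The epidermal genes Klf4, Klf5 and Klf9 had no H3K27me3 region in or near the gene, and Sp6 lay wholly under both marks. Klf4, which occupies chr4:55527137-55532475, had 73.2% of its body under H2AK119ub. Its body held a region of 3.89 kb, and a region of 18.1 kb ended 17 bp (0.017 kb) inside the lower-coordinate end. The nearest H3K27me3 region lay 58.8 kb away. Klf5, which promotes proliferation of basal keratinocytes, occupies chr14:99298691-99313412 and had no region of either mark. The nearest H2AK119ub region to Klf5 was 7.20 kb wide and 2.96 kb from the body, and the nearest H3K27me3 region was 434 kb away. Klf9, which restrains proliferation of human keratinocytes in culture, had 2 H2AK119ub regions of 4.68 kb and 2.25 kb, the wider one outside the body, so that 8.37% of the body was covered. Its nearest H3K27me3 region was 277 kb away. The 3 genes differed in how far H2AK119ub covered them. With Sp6, H3K27me3 was at 1 of the 4 epidermal genes (25%), close to the 27.3% of all protein-coding genes.

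Sp6, also called epiprofin, acts in hair follicles and teeth, and it differed from the other epidermal genes. H2AK119ub in a region of 62.4 kb and H3K27me3 in a region of 43.5 kb each spanned the whole body at chr11:97013569-97024739. The H3K27me3 region reached 0.26 kb past the upper-coordinate end of Sp6 and 32.1 kb past the lower one. In its coverage Sp6 was like Sp5, Sp7, Sp8 and Sp9 and unlike Klf4, Klf5 and Klf9. The sort selected Sca1(+) cells of the epidermis, and which skin cells express Sp6 was not examined here.

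**Figure D2:**
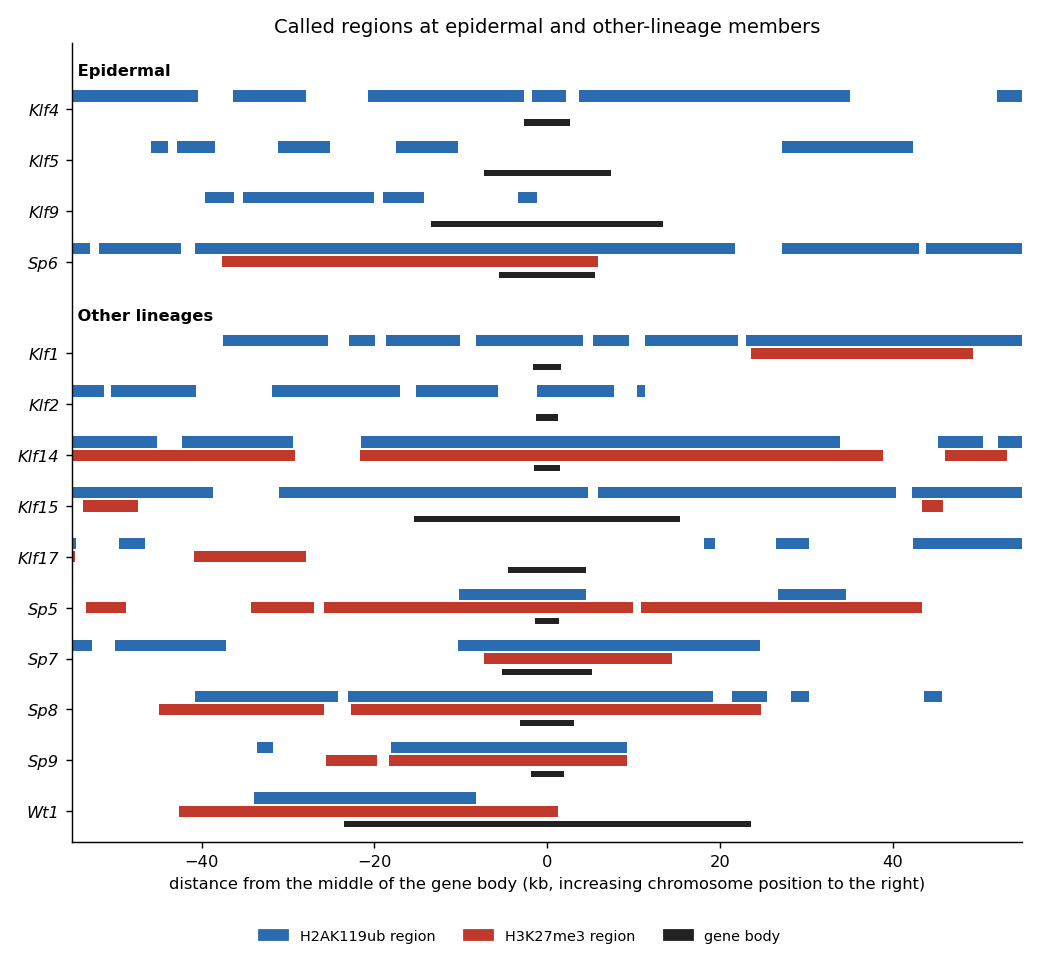
Called H2AK119ub regions (blue) and H3K27me3 regions (red) above the gene body (black) at epidermal and other-lineage genes, by distance from the middle of the gene body (kb), cut at 55 kb. No H3K27me3 region touches Klf4, Klf5 or Klf9, while Sp6, Klf14, Sp5, Sp7, Sp8 and Sp9 lie wholly under both marks.

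H2AK119ub was present at 3 of the 4 epidermal and 9 of the 10 other-lineage genes, and H3K27me3 at 1 of the 4 epidermal and 6 of the 10 other-lineage genes. All protein-coding genes had H2AK119ub at 60.6% and H3K27me3 at 27.3%, so the epidermal share of H3K27me3 was near that of all genes and the other-lineage share (60.0%) above it. The 6 other-lineage genes with both marks were Klf14, Sp5, Sp7, Sp8, Sp9 and Wt1. At all of these except Wt1 both marks covered 100% of the body. Sp8 and Sp9, which are required for limb outgrowth and for neurons of the forebrain, had H3K27me3 regions of 47.4 kb and 27.5 kb and H2AK119ub regions of 42.3 kb and 27.3 kb. Sp5, a target of Wnt signalling in the early embryo, had H3K27me3 over 35.8 kb and H2AK119ub over 14.7 kb. Sp7, also called osterix and required for bone, had H3K27me3 over 21.7 kb and H2AK119ub over 35.0 kb. Klf14, an intronless imprinted gene known from studies of fat, had the widest H3K27me3 region of the 30 genes, 60.5 kb, and 55.4 kb of H2AK119ub. The lists do not show whether a mark lay on both alleles or in every cell, and these cannot be told apart.

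Wt1, a regulator of kidney and gonad formation, was covered in part. Its 47.1 kb body at chr2:105126529-105173614 was 52.6% under an H3K27me3 region of 43.8 kb and 32.6% under an H2AK119ub region of 25.7 kb. Both regions covered the lower-coordinate end and stopped inside the body, 22.3 kb and 31.7 kb before the upper-coordinate end. The upper part of Wt1 was thus free of called regions of both marks.

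The other 4 genes of other lineages lacked H3K27me3. Klf1, the activator of globin genes in red blood cells, had a 12.4 kb H2AK119ub region over its whole body, and its nearest H3K27me3 region was 21.9 kb away. Klf2, a factor of endothelium and resting T cells, had an 8.88 kb H2AK119ub region over 96.0% of the body, and its nearest H3K27me3 region was 370.0 kb away. Klf15, which acts in muscle, liver and kidney metabolism, had 96.3% of its body under 2 H2AK119ub regions of 35.8 kb and 34.5 kb. Klf17, known from germ cells and early embryos, had neither mark, with H2AK119ub 13.6 kb and H3K27me3 23.4 kb from its body. Known roles outside the epidermis were therefore not matched by H3K27me3 at every gene.

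**Figure D3:**
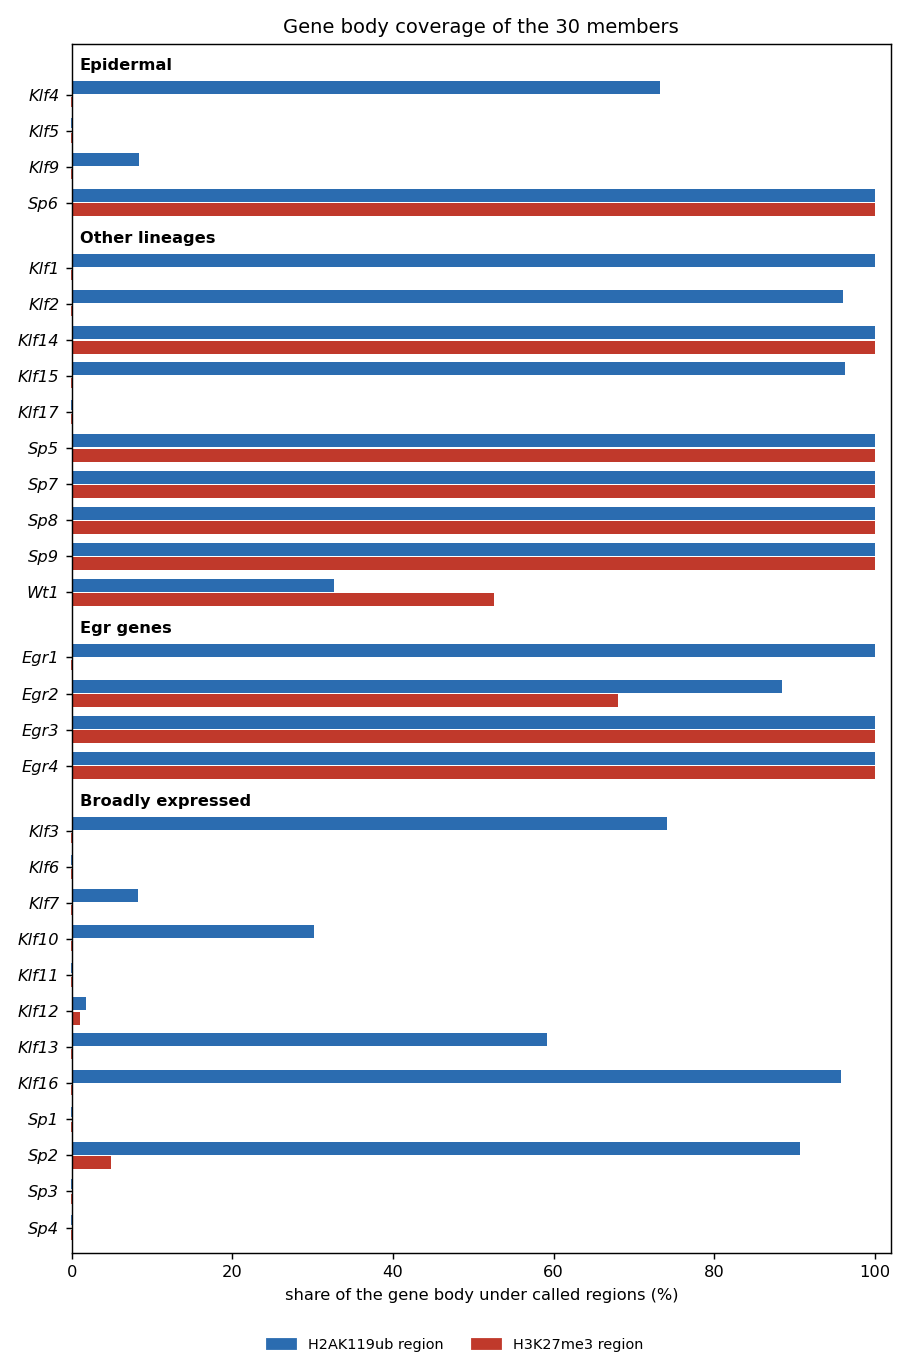
Share of each gene body under called regions (%, horizontal axis) of H2AK119ub (blue) and H3K27me3 (red) for all 30 genes, with a tick at 0 where no base was covered. H3K27me3 covered at least 50% of the body at 10 genes, of which 6 are other-lineage and 3 Egr genes and the last is Sp6.

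The Sp genes stand in neighbouring pairs on 4 chromosomes, and in 3 of the 4 pairs one neighbour had both marks and the other had neither. Each pair joins a gene grouped here as broadly expressed (Sp1 to Sp4) to one grouped as epidermal or other-lineage (Sp6 to Sp9). Expression was not measured, and the arrangement was taken up after the values had been seen. Klf5 and Klf12, neighbours 552.8 kb apart on chromosome 14, were the reverse by presence of the marks alone. The epidermal gene Klf5 had neither mark and Klf12, grouped as broadly expressed, had both. At Klf12, however, H2AK119ub covered only 1.73% and H3K27me3 1.06% of the body, at the end away from Klf5. Sp7 and Sp1 lie 39.3 kb apart on chromosome 15, where Sp7 was wholly covered by both marks and Sp1 had neither. The H2AK119ub region over Sp7 ended 19.9 kb (19859 bp) before the start of Sp1. Sp9 and Sp3 lie 291.5 kb apart on chromosome 2, separated by Ola1, a gene for an ATPase, and again the first was wholly covered by both marks and Sp3 had neither. Sp8 and Sp4, 545 kb apart on chromosome 12, showed the same contrast. Sp6, Sp7, Sp8 and Sp9 were all at 100% coverage by both marks, and Sp1, Sp3 and Sp4 were at 0%.

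Sp6 and Sp2, the closest pair, were the exception because their marks ran into each other. They lie 30.6 kb apart on chromosome 11, and the regions of both marks over Sp6 extended into Sp2. The shared H3K27me3 region covered 4.88% of the Sp2 body, a stretch of 1.45 kb at its 5′ end. H2AK119ub covered 90.7% of Sp2 in 3 regions. Sp2 and Sp6 therefore count as 2 genes with H3K27me3 through 1 region. The same H2AK119ub region also reached Scrn2 and Lrrc46, which lie nearer to Sp6 than Sp2 does.

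All 4 Egr genes had H2AK119ub over most or all of the body, and they differed in H3K27me3. Egr1, the best known immediate-early factor of the family, had a 20.6 kb H2AK119ub region over its whole body on chromosome 18, and its nearest H3K27me3 region was 139 kb away. Egr3, which acts in muscle spindles and lymphocytes, lay in a 140.4 kb H2AK119ub region, the widest at any of the 30 genes and wider than at 95.4% of all genes with the mark. The H3K27me3 region at Egr3 was only 8.05 kb wide and covered the 5.30 kb body with 2.10 kb on one side and 0.655 kb on the other. Egr4 had the opposite proportion, with 33.5 kb of H3K27me3 around 19.6 kb of H2AK119ub, both of which also touched the neighbouring gene Fbxo41.

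Egr2, the regulator of myelin genes and of the hindbrain, was the only Egr gene with a break in both marks inside the body. H3K27me3 covered 68.0% of its body in regions of 8.14 kb and 3.21 kb, and H2AK119ub covered 88.4% in regions of 15.0 kb and 10.7 kb. The promoter table lists 5 starts for Egr2. The first lay under both marks, and the other 4 lay in the break, between 15 and 379 bp from H3K27me3 and between 63 and 427 bp from H2AK119ub. By the widest H3K27me3 region of each gene, Egr2 and Egr3 were the narrowest of the 12 genes with that mark.

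**Figure D4:**
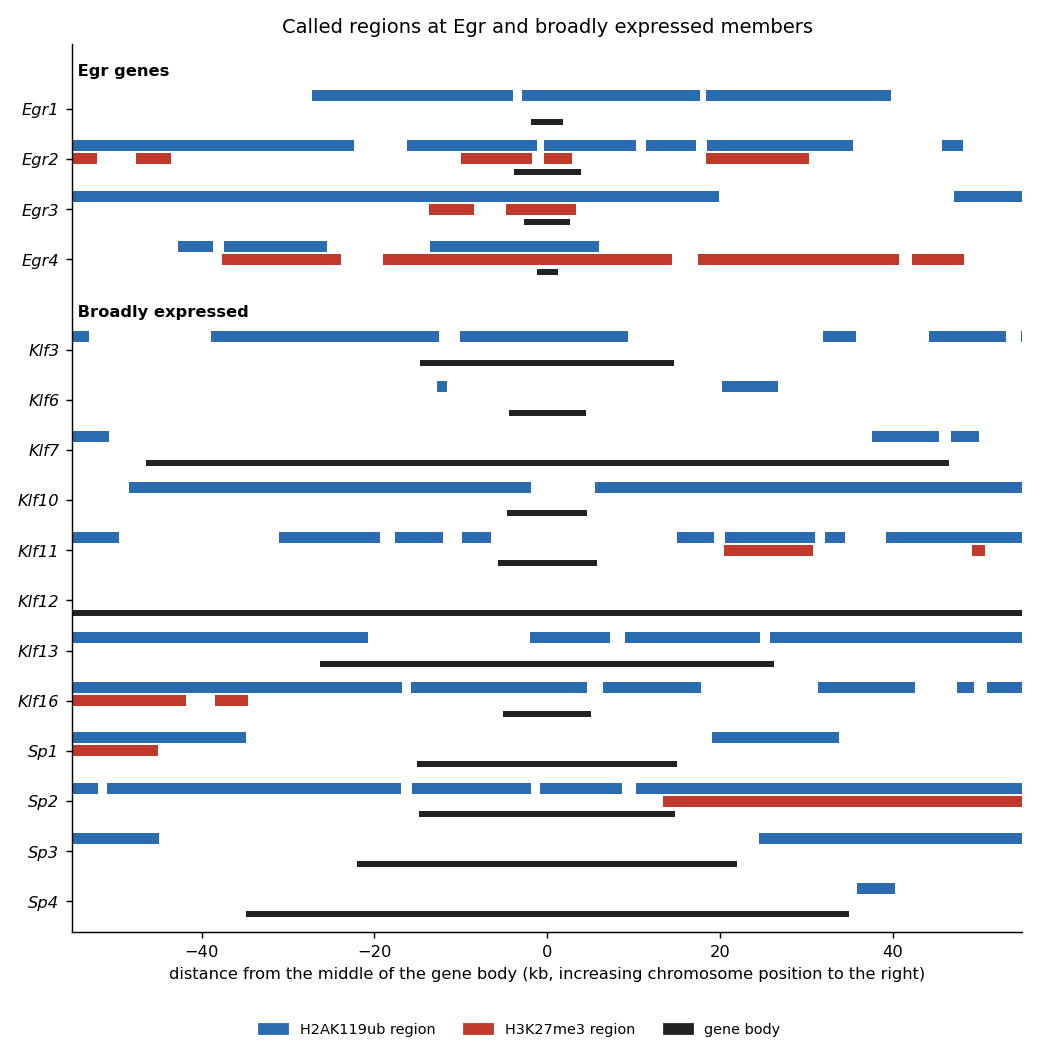
Called H2AK119ub regions (blue) and H3K27me3 regions (red) above the gene body (black) at Egr and broadly expressed genes, by distance from the middle of the gene body (kb), cut at 55 kb. H3K27me3 overlaps Egr2, Egr3, Egr4 and the end of Sp2; the regions of Klf12 lie at one end of its 419.7 kb body, beyond the plotted range.

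Of the 12 broadly expressed genes, 8 had H2AK119ub and 2 had H3K27me3, which lay at one end of the gene in both. These shares (66.7% and 16.7%) compare with 60.6% and 27.3% of all protein-coding genes. Klf12, a repressor with a very long gene, had an 11.7 kb H3K27me3 and a 13.9 kb H2AK119ub region at the upper-coordinate end of its 419.7 kb body, which is the 5′ end since the gene lies on the minus strand. They covered 1.06% and 1.73% of the body. The H2AK119ub region lay 128852 bp upstream of the start given in the promoter table, and with a window of 1 kb around that start Klf12 had neither mark. The second gene with H3K27me3 was Sp2. The remaining 10 genes of this group, among them Klf3, Klf10 and Klf13, had no H3K27me3 in or near the body.

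Among the 6 broadly expressed genes with H2AK119ub alone, coverage of the body ran from 0% to 95.8%. Klf16 had 95.8% of its body under a 20.5 kb region, and Klf3, a repressor that works with the corepressor CtBP, had 74.1% under 2 regions of 26.5 kb and 19.5 kb. Klf13 had 59.2% under 4 regions, the widest of 44.6 kb. Klf10, a gene induced by TGF-beta, lay between 2 wide regions of 46.5 kb and 50.6 kb that left most of the gene uncovered, at 30.1%. Klf7, with a role in neurons, had 8.27% of its body covered. Klf11 counted as marked only through a 3.26 kb region that ended 836 bp outside the body.

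Klf6, Sp1, Sp3 and Sp4 had neither mark, although Sp4 lay close to the limit. Its nearest H2AK119ub region ended 1004 bp upstream of the body, just beyond the 1 kb that was counted, whereas that of Klf11 lay just within it. The nearest H2AK119ub region was 2.46 kb from Sp3, 4.06 kb from Sp1 and 7.09 kb from Klf6, an early response gene in many tissues. Klf6 was also the farthest of the 30 genes from H3K27me3, at 1912 kb.

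H3K27me3 regions at these genes were wider than is typical of marked genes, and H2AK119ub regions were close to typical. The widest H3K27me3 region had a median of 34.6 kb over the 12 genes (range 8.05 to 60.5 kb), against 11.4 kb over the 5142 autosomal genes with the mark, and 10 of the 12 were above that median. The widest H2AK119ub region had a median of 23.1 kb over the 24 genes (range 3.26 to 140.4 kb), against 20.1 kb over the 12409 autosomal genes with it, and 14 of the 24 were above. Regions shared by Sp2 and Sp6 enter these medians at each of the 2 genes. Wide H3K27me3 regions were not particular to this family. At 18 further zinc finger genes of other lineages with the mark, the widest region ran from 6.79 kb (Gli2) to 85.0 kb (Zic1 and Zic4).

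At the 12 genes with both marks, neither mark always enclosed the other. H3K27me3 was the wider mark at 6 genes (Egr4, Klf14, Sp5, Sp8, Sp9 and Wt1), of which 5 are other-lineage genes, and H2AK119ub was wider at Sp6, Sp2, Klf12, Egr2, Egr3 and Sp7. Over autosomal genes with both marks H3K27me3 was the wider one at 32.0%. The 2 marks ended almost together at Sp9, where the lower edges lay 247 bp and the upper edges 9 bp apart, and at the lower edge of the Klf14 regions, which differed by 58 bp. At Sp5, by contrast, H3K27me3 reached 15665 bp and 5480 bp beyond H2AK119ub on the 2 sides, and at Egr3 H2AK119ub reached 115850 bp and 16534 bp beyond H3K27me3. The mark boundaries thus coincided at some of these genes and lay far apart at others.

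Transcript starts with strand were listed for 21 of the 30 genes, and the first listed start was taken where there were several. At the 7 of these with both marks, the start lay under H2AK119ub at 6 and under H3K27me3 at the same 6 (Sp2, Egr2, Egr4, Sp5, Sp8 and Sp9), with Klf12 as the exception. Over all genes with both marks the start was under H2AK119ub at 84.7%, and over all genes with H3K27me3 it was under H3K27me3 at 71.8%. At the 9 with H2AK119ub alone, the start was covered at 4 (Klf3, Klf13, Klf1 and Klf15), against 50.6% of all genes of that class. The H2AK119ub counts for these genes are thus close to those of all genes with the same marks. The 71.8% is over genes with H3K27me3 whether or not they had H2AK119ub, so that comparison is not within 1 class.

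The 5 genes with H2AK119ub alone and an uncovered start were Klf4, Klf9, Klf7, Klf11 and Klf2, and each had an edge of a region within 838 bp of the start. Among all genes of this kind 59.7% had an edge within 1 kb. The class itself requires a region in the body or within 1 kb of it, which is how Klf11 entered it. At Klf4 the start lay in a gap of 1.58 kb, with a 31.3 kb region 1036 bp upstream and the 3.89 kb region 547 bp downstream. At Klf7 the gap measured 1.45 kb, with edges 1268 bp upstream and 178 bp downstream. Such a gap, with edges within 2 kb on both sides, was found at 22.1% of all genes with H2AK119ub alone and an uncovered start. At Klf2 the region began 103 bp downstream of the start, while at Klf9 and Klf11 the nearest region ended 838 bp and 836 bp upstream.

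**Figure D5:**
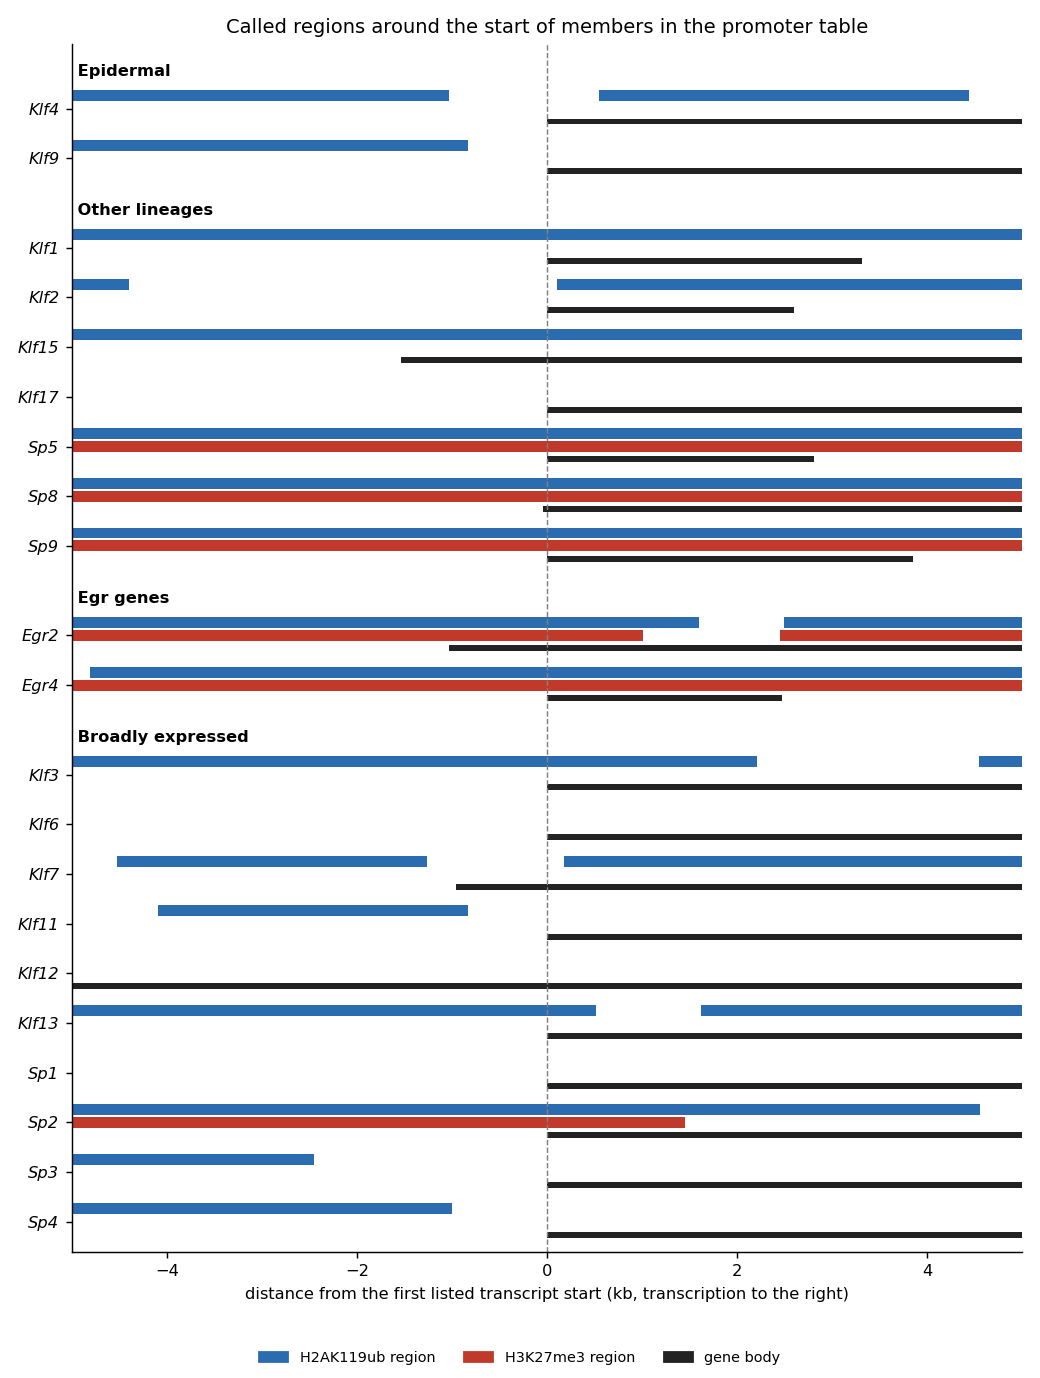
Called H2AK119ub regions (blue), H3K27me3 regions (red) and gene bodies (black) within 5 kb of the first listed start of 21 genes (dashed line at 0, transcription to the right). Both marks run across the start at Sp5, Sp8, Sp9, Egr2, Egr4 and Sp2; the starts of Klf4 and Klf7 lie in gaps of 1.58 kb and 1.45 kb between H2AK119ub regions.

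Promoters of these genes were CpG-rich on the whole, and those of the genes with both marks were mixed. The ratio of observed to expected CpG in the 300 bases had a median of 0.83 over the 21 genes, against 0.585 over 17274 protein-coding genes. A ratio below 0.585 was found at 4 of the 7 genes with both marks (Klf12, Sp2, Sp5 and Sp8), 1 of the 9 with H2AK119ub alone (Klf1) and 1 of the 5 with neither (Klf17). Over all genes with both marks the median was itself below 0.585, at 0.576, so 4 of 7 is not unusual for that class. Only the first listed start of each gene was used. That of Klf12 lies inside the gene, 128852 bp from its H2AK119ub region, so its promoter window was not itself marked. Sp2 and Sp8 each have 3 listed starts, and the ratio at the later ones was not computed. The class medians were 0.426, 0.889 and 0.844, against 0.576, 0.728 and 0.314 over all genes of the same 3 classes. The ratio was high at Klf4 (0.974, 40 CpG) and Klf2 (0.889, 32 CpG), whose starts lie beside H2AK119ub regions, and highest at Klf15 (1.18, 47 CpG), whose start lies within one. Among genes with both marks it was 0.826 at Sp9 and 0.157 at Sp8, with 25 and 2 CpG in the sequences printed above. Sp3, with neither mark, had 29 CpG and a ratio of 0.87, and Klf17, also with neither, had 6 CpG and a ratio of 0.379. Klf1, which lay under H2AK119ub, had 3 CpG and a ratio of 0.152. The window is short, and CpG islands beside it were not examined.

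The 21 promoters were searched on both strands for the binding sites of the family itself. GGGCGG, the GC box bound by Sp factors, was present in 14, against 46.9% of all promoters of this length. CACCC, the core of Klf sites, was present in 17, against 58.7%. GCGNGGGCG, the Egr site, was present in 5 (Klf4, Klf3, Sp4, Klf2 and Klf15), against 7.58%. These comparisons were not matched for base composition, and the median CpG ratio was 0.83 at the 21 promoters against 0.585 over all promoters. The Egr site ends in letters that also begin the GC box, so the 2 searches can meet on the same bases, and a match is a description of letters and not of binding. The Klf4 window held 4 GC boxes, no CACCC and 2 Egr sites, and the Sp9 window held 1 GC box, 2 CACCC and no Egr site.

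Genes around this family gave a frame for its marks. The counts below stand beside 60.6% of all protein-coding genes with H2AK119ub and 27.3% with H3K27me3. Of 20 cofactors and upstream factors, 18 had H2AK119ub and 2 had H3K27me3, which were Elk1, on the X chromosome, and Elk3. Nab2, the corepressor of Egr factors, had H2AK119ub over 100% of its body, and its relative Nab1 had neither mark. Ctbp2, a corepressor recruited by Klf3, lay 97.1% under H2AK119ub, and Ep300, a coactivator, had neither mark. All 15 epidermal partner factors had H2AK119ub, and 6 also had H3K27me3 (Tfap2a, Tfap2c, Ovol1, Ovol2, Gata3 and Prdm1), as did Sp6. Trp63, the master regulator of stratified epithelia, had H2AK119ub alone over 6.80% of its body. The 10 other-lineage Klf, Sp and Wt1 genes had H2AK119ub at 9 and H3K27me3 at 6, against 20 and 18 of 20 further zinc finger genes of other lineages, where Gli3 and Bcl11b lacked H3K27me3. This difference was not tested. Zic1 and Zic4, which act in the nervous system, shared an 85.0 kb H3K27me3 region.

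The counts at markers of the sorted cells and of other skin cells are given beside 27.3% of all protein-coding genes with H3K27me3. The 10 basal keratinocyte markers all had H2AK119ub, and H3K27me3 touched only Dst, over 7.85% of its body. Of 5 suprabasal markers, Krt10 and Lor had both marks, Krt1 and Ivl had H2AK119ub alone and Flg had neither. H3K27me3 was present at 5 of 5 Merkel cell markers, 4 of 4 fibroblast markers, 3 of 5 immune markers, 1 of 4 endothelial markers and 1 of 6 melanocyte markers. Tyr, Tyrp1, Ptprc and Cdh5 had neither mark, although they mark melanocytes, leukocytes and endothelium. Endothelial and T cells lack the keratin 14 reporter by which the cells were sorted, and their part in the regions at Klf2, a gene of both, was not tested.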

How the data were processed

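For each mark the authors deposited a single file of regions, whose columns are chromosome, start and end in bp per the file headers. The submitters' processing notes name mm10, Bowtie2 2.3.3.1 and SAMtools 1.9 but not what each was used for. How regions were called, whether the input was subtracted and whether the libraries of a mark were merged is not given in the sources used here, although each would change how many regions there are and how wide they are. A gene without a region may carry the mark below that unknown threshold. Depth per library is unknown, so no interval is given. A start was taken to be counted from 0 and raised by 1, which the header leaves uncertain by 1 bp. Bodies of genes were taken from RefSeq (GRCm38.p6), and transcript starts, strand and promoter letters from a RefSeq promoter table of the same build, which had 17274 of the 21631 protein-coding genes. In 1672 places where windows of opposite strands overlap, the letters were reverse complements of each other in 1672.

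Overlaps, coverage and CpG ratios (count of CG times length over the product of C and G counts) were computed with Python 3.11.15, pandas 2.3.3 and numpy 2.4.6. The overlap code was tested on simulated data, and 0 of 4000 windows differed from a base-by-base recount. The genes, their 4 groups and the related lists were chosen with earlier results of these data known. All 30 genes are named, and other genes are those under a region at one of the 30 or taken from the lists as examples. One gene of the epidermal partner list is not reported here. The 7 alternatives were a window of 0 or 5 kb or around the transcript start, a stricter overlap (2 forms), each list without regions under its median width, and lists of equal size. No test was made, because 1 list per mark gives no replicate error.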

Additional observations from a re-analysis of the deposited data

How the results depend on the processing

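The 7 counts of marked genes stayed within 1.5 times their value under all 7 alternatives. The H2AK119ub counts could not have passed this limit upwards, because 24 of 30, 3 of 4 and 9 of 10 genes already had the mark. H2AK119ub was found at 2 to 4 of the 4 epidermal genes and at 8 to 9 of the 10 other-lineage genes. The number of the 30 genes with H2AK119ub was between 18 and 28, the number with H3K27me3 between 10 and 12 and the number with both between 9 and 12. The shares of all protein-coding genes under these alternatives are not given here. The ranges therefore do not show whether the difference from all genes held. H3K27me3 was found at 1 of the 4 epidermal and 6 of the 10 other-lineage genes under each alternative. However, 9 of the 30 genes have no listed start, among them Sp6, Klf14, Sp7 and Wt1. For these 9 the window around the start does not rest on a listed start and is no separate check. Extending the window to 5 kb added H2AK119ub at Klf5, Sp1, Sp3 and Sp4, which had none under the 6 other alternatives. Requiring 50% of the window to be covered removed H2AK119ub from 6 genes (Klf9, Klf7, Klf10, Klf11, Klf12 and Wt1) and H3K27me3 from Klf12 and Sp2. Dropping regions under the median width of their list removed H2AK119ub from Klf9, Klf7 and Klf11 and H3K27me3 from Egr2 and Egr3. Lists of equal size removed H2AK119ub from Klf9, Klf7, Klf11 and Klf2. When regions separated by at most 1 kb were joined, 32 of 36 widths were unchanged and 3 grew by more than 1.5 times, at Egr1 (42.7 kb of H2AK119ub), Egr2 (26.6 kb of H2AK119ub) and Sp5 (69.2 kb of H3K27me3). In the upstream 250 bases alone the median CpG ratio of the 21 promoters was 0.762. No library could be left out, since each mark has 1 list for both of its libraries. No paired analysis was possible because the lists carry no replicate.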
